A study of Mus musculus with 13 samples.

Results

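The injured hemisphere of the mouse brain was compared with the opposite hemisphere of the same animal after controlled cortical impact (CCI), a focal injury made by a piston that deforms the cortex through an opening in the skull. The comparison uses 8 of the 13 libraries of the series, which are 4 hemispheres from the side of surgery (ipsilateral) and 4 from the other side (contralateral). Both sides came from animals 1, 2, 3 and 5, were grouped by the labels and were paired by animal number. All mice, sham-operated ones included, were wild-type C57BL/6 males aged 12 to 16 weeks, and tissue was taken on day 4 after surgery. The sham group supplied 2 ipsilateral hemispheres (animals 4 and 6) and 3 contralateral ones (animals 4, 6 and 8), and animals 4 and 6 give the background of a hemisphere difference without impact. The library names carry RH on the side of surgery and LH opposite it, which are taken to mean right and left hemisphere, and the running numbers of both kinds do not mix. Side of surgery, right or left, and that numbering cannot be told apart within CCI mice. Each library is a perfused brain hemisphere in bulk, so fewer cells of a type and less RNA per cell cannot be told apart.

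Microglia are the resident phagocytes of the brain, and monocytes that enter from the blood after an injury become macrophages beside them. Both take up debris and break it down in lysosomes, and astrocytes around a lesion enlarge and make intermediate filament proteins. Interferons act through cell-surface receptors on a set of genes whose promoters often hold an interferon-stimulated response element. Neurons that fire switch on immediate early genes, many of them through the factor CREB and its binding site in the promoter.

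The ipsilateral libraries held 7126708 to 7955076 counts and the contralateral ones 5604856 to 7444568, and levels are given as CPM, the counts scaled to a common library size with TMM factors. Mitochondrially encoded genes took 6.29% to 7.28% of ipsilateral and 7.23% to 7.56% of contralateral counts. In 3 stretches of the genome, 361 neighbouring protein-coding genes were listed at 0 in all 13 libraries. They lie on chromosome 1 between positions 115684756 and 136531511 (155 genes) and between 143598800 and 163725232 (115 genes), and on chromosome 2 between 3114224 and 22940266 (91 genes; build GRCm38). They include Vim, Gad2, Glul, Mrc1, Il10, Ptgs2 and Btg2, which are therefore not analysed here. Hemispheres also differed in markers of brain regions. The 12 hypothalamus genes tested had a mean log2(CPM + 0.5) of 1.20 in the contralateral library of animal 1 against 2.51 to 2.80 in the other 3 contralateral libraries. The 7 olfactory bulb genes stood at 4.33 in the contralateral library of animal 2 against 3.24 to 3.39 in the others.

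Of 14297 genes tested, 2018 were higher and 1643 lower in the ipsilateral hemisphere, which is 25.6% of all genes called (14.1% higher and 11.5% lower). A gene was called at an adjusted p under 0.05 in edgeR's quasi-likelihood test with the animal as a block and Benjamini-Hochberg adjustment over all genes tested, and each adjusted p below is from that fit unless another is named. Rises were larger than falls: 487 genes rose at least 2-fold and 20 fell at least 2-fold, with a median log2 fold change of 0.53 among higher and -0.24 among lower calls and -0.006 over all genes. The sign was the same in all 4 animals for 1943 of the higher and 1544 of the lower genes, where 21.3% and 19.6% of all genes tested were higher or lower in all 4. The 2 groups of libraries did not overlap for 1605 higher and 1147 lower calls, against 23.2% of all genes tested in either direction. Higher genes made up 55.1% of calls, 67.0% when libraries were scaled to their totals alone and 70.5% in limma on the authors' TPM. DESeq2 with the same block called 976 higher and 657 lower genes. Of the 153 named genes, 19 lost their call in DESeq2 and 13 in limma on the authors' TPM. For single genes below, lost calls are given mainly for the fits without the block or without an animal. Without animal 5 there were 1480 higher and 1056 lower calls. In the authors' deposited table for these groups 1125 genes pass as higher and 349 as lower, and 1402 genes are called in both (95.1% of theirs and 38.3% of those here).

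The genes that rose most include many known from phagocytes that take up debris. Among the 12 largest rises of called genes of at least 5 CPM were, by log2 fold change, Gpnmb at 4.33, Lgals3 at 4.31, Spp1 at 4.27, Lyz2 at 4.22, Hmox1 at 4.00, Msr1 at 3.86, Gm49339 at 3.72, Atf3 at 3.61, Lcn2 at 3.12, Thbs1 at 3.10 and Col3a1 at 3.01. Spp1 (chromosome 5, 104435118 to 104441050) encodes osteopontin, a secreted matrix protein made by activated phagocytes. It stood at 565, 459, 749 and 659 CPM in the ipsilateral hemispheres of animals 1, 2, 3 and 5, and at 26.8, 40.2, 33.4 and 22.4 CPM in their contralateral ones. The groups were far apart, and sham hemispheres of either side held 16.5 to 19.9 CPM. The rise was 19.3-fold (log2 4.27, SE 0.26, adjusted p = 0.00259). Gpnmb (chromosome 6, 49036546 to 49070929), a lysosome-linked membrane glycoprotein of macrophages, stood at 133, 121, 235 and 154 CPM against 6.49, 11.7, 7.39 and 5.7 CPM, a 20.1-fold rise (SE 0.28 on the log2 scale, adjusted p = 0.00277). Animal 2 had the highest contralateral and the lowest ipsilateral level of both genes. Hmox1, the haem-degrading enzyme haem oxygenase 1, stood at 103, 72.4, 106 and 128 CPM against 6.19, 8.24, 5.51 and 4.81 CPM and rose 16-fold (adjusted p = 0.000246). Msr1 and Cd36 are scavenger receptors, Lgals3 is the lectin galectin 3 and Lyz2 is a lysozyme of myeloid cells. Thbs1, for thrombospondin 1, lost its call without animal 1 (adjusted p = 0.0759) and without animal 5 (0.0701). Gm49339 is annotated as a protein-coding gene on chromosome 10.

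**Figure D1:**
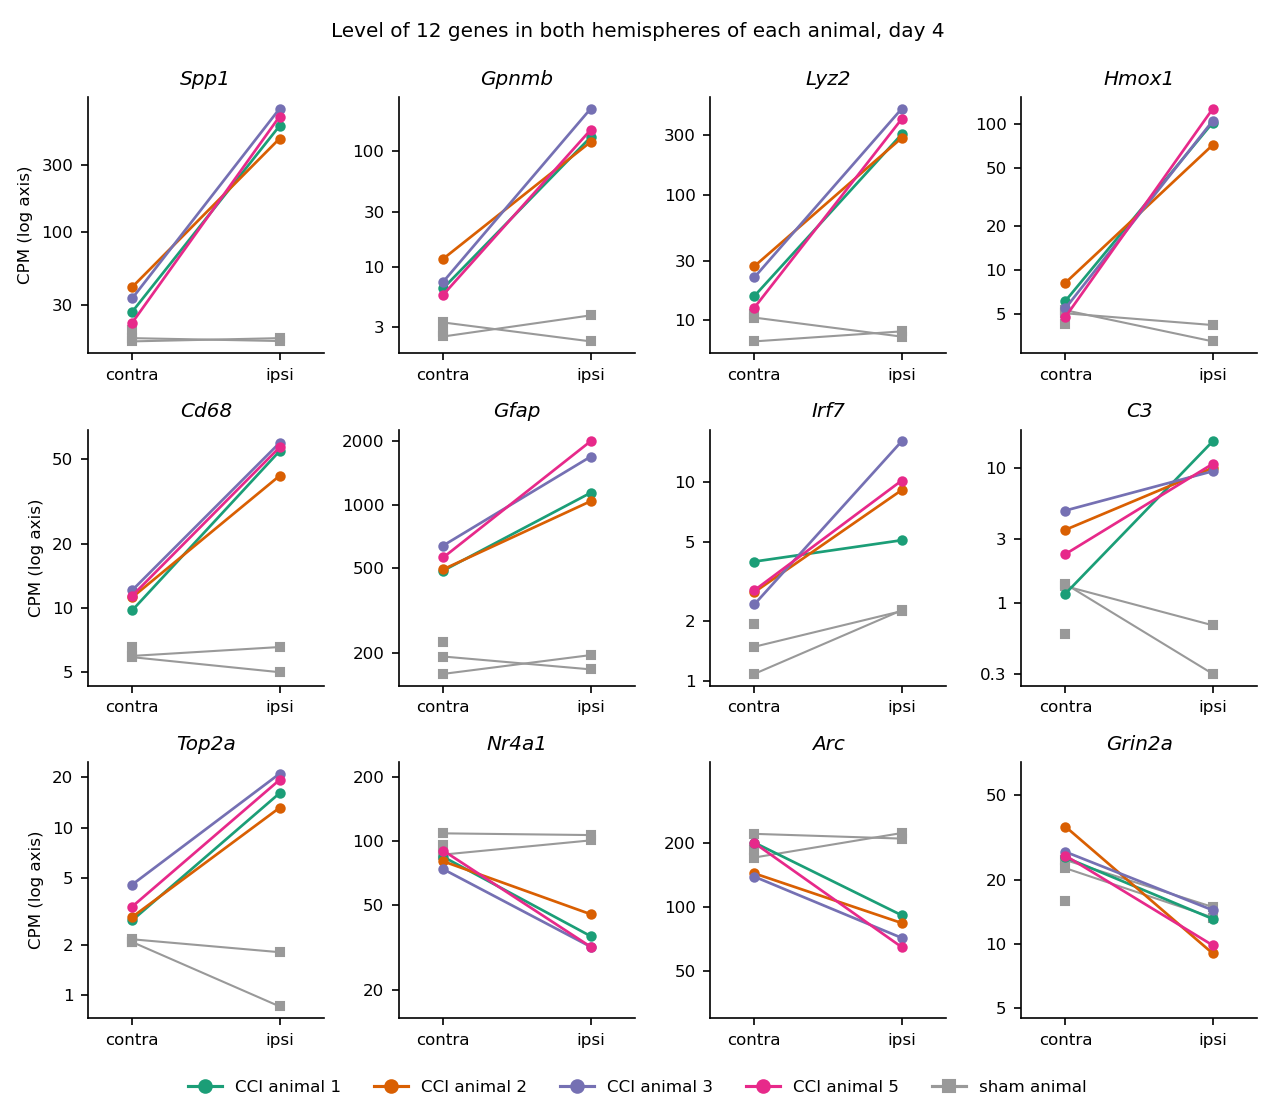
Level of 12 genes in CPM (log axis) in the contralateral and ipsilateral hemisphere. Each line joins the hemispheres of 1 animal, coloured for the 4 CCI animals and grey squares for sham, with sham animal 8 as a contralateral point only. The first 9 genes were higher and Nr4a1, Arc and Grin2a lower on the ipsilateral side in all 4 CCI animals, and Grin2a was lower on that side in both sham animals too.

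Among the other phagocyte genes, all 22 members of the activated phagocyte list rose, with a median log2 fold change of 1.55. Apoe, a lipid carrier, averaged 1517 CPM against 1012 CPM and Ctsb, the lysosomal protease cathepsin B, 1217 CPM against 639.6 CPM. Cd68, a lysosomal membrane protein of phagocytes, stood at 54.6, 41.8, 59.7 and 56.9 CPM against 9.73, 11.2, 12.1 and 11.4 CPM, without overlap (4.76-fold, adjusted p = 2.31e-14). Trem2, the receptor that drives microglia into this state, rose by 1.22. Of the 16 homeostatic microglia genes 13 rose, with a smaller median of 0.57. Tmem119, a marker of resident microglia, stood at 26.2, 20.5, 27.1 and 28.2 CPM against 18.3, 17.2, 20.3 and 17.4 CPM. Its groups sat close together without overlap, and it rose 1.38-fold (log2 0.47, SE 0.09, adjusted p = 0.000522). P2ry12, a nucleotide receptor of resting microglia, had 45.6, 32.7, 48.4 and 45.6 CPM against 36.1, 33.1, 40.0 and 34 CPM. The groups overlapped because animal 2 did not differ (paired log2 difference -0.02). Its call (log2 0.26, adjusted p = 0.014) was lost without the animal as a block (0.0945), without animal 1 (0.0779) and without animal 5 (0.121). It was also lost in DESeq2 (0.245) and in limma on TPM (0.117). Cx3cr1, the fractalkine receptor, rose by 0.73 and Cst3, a protease inhibitor, by 0.23, and the last call was lost without the block (0.191).

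Among markers of cells from the blood, those of monocytes and macrophages rose and most of those of lymphocytes were too low to test. Of 16 monocyte and macrophage genes 10 passed the filter on low counts, 9 of these rose and 1, Cd163, did not pass the test (log2 0.24). Fn1, for fibronectin, averaged 166 CPM against 64.7 CPM and Vcan, for versican, 40.1 CPM against 25.2 CPM. Both transcripts were well present on the contralateral side, and which cells of the bulk tissue held them was not tested. Arg1, the arginase of wound-healing macrophages, stood at 11.7, 5.8, 9.44 and 8.97 CPM against 0.147, 0.419, 0.269 and 0.178 CPM. The contralateral values rest on 1 to 3 counts per library, and the fitted rise was 32.1-fold (adjusted p = 6.47e-11). Ccr2, the chemokine receptor that brings monocytes into tissue, stood at 3.49, 2.71, 4.65 and 3.74 CPM against 0.59, 0.978, 0.94 and 1.96 CPM and rose 3.32-fold. Ms4a7, a marker of macrophages rather than resting microglia, rose by 2.86. Ly6c2, which marks inflammatory monocytes, had 31 counts over the 4 ipsilateral and 7 over the 4 contralateral libraries and was too low to test. Neutrophil markers were sparse: S100a8 had 43 counts over the ipsilateral and 37 over the contralateral libraries and S100a9 had 44 and 48, of which the contralateral library of animal 3 alone held 29 and 39. Of 9 neutrophil genes in the table, only Csf3r, a receptor shared with monocytes, was tested and rose (1.17). Of 14 T and NK cell genes 3 were tested and none rose: Thy1, which neurons express, fell by 0.18 and Cd4 had -0.23 (adjusted p = 0.27). Ighm, the heavy chain of IgM and the only B cell gene tested, had 0.11 (0.398).

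Complement and lysosome genes followed the same direction. Of 14 complement genes tested 12 rose (median 1.34), among them C1qa (1.44) and C1qb (1.39), subunits of the initiating complex, and the receptors C3ar1 (2.95) and C5ar1 (2.61). C4b stood at 184, 155, 221 and 206 CPM against 70.0, 74.7, 88.8 and 75.5 CPM, without overlap, while sham hemispheres held 25.3 to 41 CPM. It rose 2.46-fold (adjusted p = 5.79e-13). C3, the central component, stood at 15.7, 9.99, 9.44 and 10.7 CPM against 1.18, 3.49, 4.84 and 2.31 CPM. Animal 1 held both the highest ipsilateral and the lowest contralateral level, so its paired difference of 3.27 compares with 1.39, 0.90 and 1.99 in animals 2, 3 and 5. The call (log2 1.92, SE 0.43, adjusted p = 0.0308) was lost without animal 2 (0.108) and without animal 5 (0.121). Of 21 lysosome and phagocytosis genes 20 rose (median 1.12), with Psap (0.29), the precursor of the saposins, and Lamp1 (0.39), a lysosomal membrane protein, the most abundant.

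Interferon-stimulated genes rose as a group, and in different measure in each animal. Promoters of 2 members are shown because both hold the element through which interferon signalling acts, searched on both strands as GAAA, any 2 bases and GAAA, and its matches are in capitals. The sequences are RefSeq windows on GRCm38.p6, written 5′ to 3′ on the gene's strand. Each runs from 250 bases before to 50 bases after the first listed start site of the gene. Isg15 lies at chr4:156200769-156201068 on the minus strand and its 3 matches overlap each other. Ifit3 lies at chr19:34583279-34583578 on the plus strand with 2 matches.
Isg15: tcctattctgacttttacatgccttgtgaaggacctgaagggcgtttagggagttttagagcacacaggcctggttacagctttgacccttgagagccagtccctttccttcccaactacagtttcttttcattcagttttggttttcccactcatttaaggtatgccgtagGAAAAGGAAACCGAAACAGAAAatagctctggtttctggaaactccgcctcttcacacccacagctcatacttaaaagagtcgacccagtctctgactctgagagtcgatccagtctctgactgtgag
Ifit3: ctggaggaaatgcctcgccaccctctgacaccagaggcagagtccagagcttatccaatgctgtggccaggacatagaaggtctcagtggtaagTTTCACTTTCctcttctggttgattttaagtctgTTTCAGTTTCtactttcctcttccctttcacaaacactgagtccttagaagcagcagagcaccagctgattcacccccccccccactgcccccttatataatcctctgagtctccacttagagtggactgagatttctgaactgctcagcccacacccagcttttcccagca
With 1 window per gene, the first listed, 14 of the 24 interferon-stimulated genes that had a window held a match, against 3.49% of 27025 windows of all genes. The share was 5.17% among genes called higher, 3.11% among those called lower and 2.87% among all genes tested with a window. These shares are a description of letters in a window and were not tested.

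Of 33 interferon-stimulated genes tested 32 rose, with a median log2 fold change of 1.29 beside -0.006 over all genes. For 27 of the 33 the ipsilateral group lay higher without overlap, as it did for 1866 of all 14297 genes tested. Isg15, a ubiquitin-like protein, stood at 5.37, 7.65, 8.9 and 6.1 CPM against 2.51, 1.96, 0.94 and 2.85 CPM, without overlap, and rose 3.44-fold (adjusted p = 0.00013). Irf7, a factor that amplifies interferon production, stood at 5.1, 9.13, 16.1 and 10.2 CPM against 3.98, 2.79, 2.42 and 2.85 CPM. Its lowest ipsilateral value, in animal 1, was close to that animal's contralateral value, the highest of the 4. Irf7 rose 3.25-fold (adjusted p = 0.00647), a call lost without animal 2 (0.0622). Ifit3, an antiviral RNA-binding protein, stood at 23.3, 32.4, 56.3 and 34.9 CPM against 15.8, 12.4, 15.3 and 15 CPM. It rose 2.48-fold (0.0125), and the call was lost without animal 2 (0.0857) and without animal 5 (0.0687). Ifit1, of the same family, rose by 1.40 (0.00925; 0.0816 without animal 2), and Lgals3bp, a secreted galectin-binding protein and the most abundant member, by 1.29.

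The animal that most often held the smallest difference was not the same for interferon-stimulated and activated phagocyte genes. The median paired difference was 0.78 in animal 1, 0.87 in animal 2, 1.68 in animal 3 and 1.16 in animal 5, with 0.10 and 0.06 in sham animals 4 and 6. The largest difference of a member fell in animal 3 for 24 of 33 genes and the smallest in animal 1 for 17. In the activated phagocyte list the medians, 1.32, 1.33, 1.65 and 1.34, ranked the animals in the same order. The largest difference of a member fell there in animal 3 for 9 of 22 genes, and the smallest in animal 2 for 16. The largest difference of C3 was in animal 1 and the smallest in animal 3, and those of Irf7 were the other way round, but both genes were named for their wide range between animals. Each animal gives 1 library per side, so differences between animals in the size of the hemisphere difference were not tested. Contralateral levels of the interferon list were near each other, at a mean log2(CPM + 0.5) of 2.21 to 2.36, and the ipsilateral ones spread from 3.01 to 3.98. Both lay above the sham hemispheres, at 1.98 to 2.08.

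**Figure D2:**
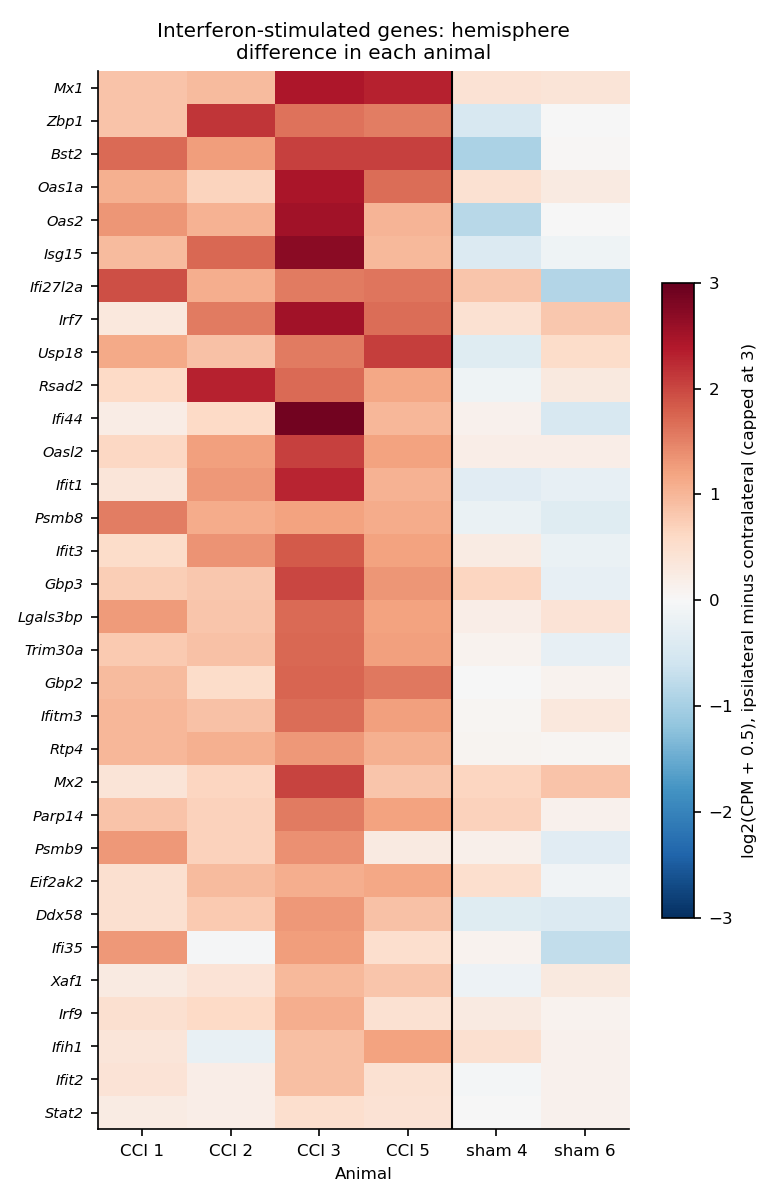
Paired difference in log2(CPM + 0.5), ipsilateral minus contralateral, of 32 of the 33 interferon-stimulated genes tested (rows, ordered by fitted log2 fold change) in 4 CCI and 2 sham animals (columns). Red is higher on the ipsilateral side; the column of animal 3 is the darkest, and over the 33 genes tested the largest difference fell in it for 24.

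The ligands and receptors of this pathway moved little or could not be tested. Ifnb1, Ifna4 and Ifng were listed at 0 in all libraries. Of 6 receptor and kinase genes tested 3 rose: Ifnar1 (0.22), Ifnar2 (0.42) and Ifngr1 (0.48), and the kinase Jak1 had 0.02 (adjusted p = 0.772). DESeq2 called none of the 6, and Ifnar1 was also lost without animal 1 (0.0697) and without animal 2 (0.0554). Of 12 antigen presentation genes 10 rose (median 1.15). B2m, the light chain of class I molecules, averaged 187 CPM against 93.8 CPM and H2-D1, a class I heavy chain, 101 CPM against 44.3 CPM. Cd74, the invariant chain of class II molecules, stood at 16.2, 17.5, 29.6 and 21.9 CPM against 4.13, 4.75, 5.51 and 3.74 CPM. The groups did not overlap, and Cd74 rose 4.63-fold (2.74e-11).

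Among secreted signals, 6 of 9 chemokines tested rose and 1 fell. Ccl2, which attracts monocytes, stood at 4.96, 1.73, 3.56 and 2.49 CPM against 0, 0.419, 0.134 and 0.534 CPM, which is 97 counts against 7. Cxcl10, an interferon-induced chemokine for T cells, rose by 3.21 and animal 1 had the lowest ipsilateral level, 2.82 CPM against 6.17 to 6.3 CPM in the others. Cx3cl1, the neuronal ligand of the microglial receptor Cx3cr1, fell by 0.29, while Cxcl12, a chemokine of vessels and meninges, had 0.07 (0.472). Of 18 cytokine and receptor genes 16 rose (median 0.84), including Il6st (0.52), the shared signalling chain of the interleukin 6 family, and Lifr (0.21), a receptor chain whose call was lost without animal 1, 3 or 5 (adjusted p = 0.103, 0.0913 and 0.147). The cytokines best known from injury were too low to test: Il1b had 18 counts over the ipsilateral and 10 over the contralateral libraries, and Tnf 7 and 6.

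Astrocyte genes rose in both of their lists. Of 17 reactive astrocyte genes 15 rose (median 1.37), and of 13 homeostatic ones 11 rose (median 0.25). Gfap, the intermediate filament protein that marks reactive astrocytes, stood at 1136, 1037, 1682 and 1989 CPM against 488, 495, 641 and 563 CPM. The groups did not overlap, and both lay above the sham hemispheres, at 159 to 224 CPM. The rise was 2.59-fold (log2 1.37, SE 0.16, adjusted p = 0.0123), and its call was lost without animal 1 (0.067) and without animal 3 (0.0773). Serpina3n, a secreted protease inhibitor, stood at 238, 208, 299 and 268 CPM against 60.8, 52.1, 74.8 and 50.9 CPM and rose 4.23-fold (3.15e-14). Aqp4, the water channel of astrocyte endfeet, rose by 1.10, while Slc1a2, the main glutamate transporter, had 0.09 (0.148). Lcn2, an iron-binding secreted protein, stood at 16.8, 7.28, 8.07 and 10.5 CPM against 1.03, 0.978, 1.75 and 0.89 CPM.

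Matrix and cell division genes rose as well. Of 26 matrix genes 19 rose (median 1.25), among them the fibrillar collagens Col1a1 (2.43) and Col3a1 (3.01) and Tnc (2.23), for tenascin C. The most abundant members, the brain proteoglycans Bcan (0.04, adjusted p = 0.632) and Ncan (0.28, 0.229; 0.0128 in limma voom), were not called. Of 16 cell division genes 15 rose (median 1.47): Top2a, a topoisomerase of dividing cells, stood at 16, 13.1, 20.9 and 19.2 CPM against 2.8, 2.93, 4.57 and 3.38 CPM, and sham hemispheres held 0.861 to 2.16 CPM. It rose 5-fold (3.72e-11), and Pcna, the replication clamp, by 0.22 (0.0144; 0.0794 without animal 1 and 0.0951 without animal 5). All 12 oligodendrocyte precursor genes rose (median 0.42), with Bcas1 at 0.40, Ptprz1 at 0.26 and Gpr17, a receptor of cells that begin to differentiate, at 1.31 (0.0111; 0.0637 without animal 3). Pdgfra, the defining precursor receptor, had 0.17 (0.0428), a call lost without the block (0.0521) and without animal 1, 2 or 5 (0.182, 0.0736 and 0.177). It was also lost in DESeq2 (0.391), limma voom (0.0502) and limma on TPM (0.193). Of 15 mature oligodendrocyte genes 9 rose with the block and 4 without it. Mbp, the basic protein of myelin, had 0.15 (0.0285), whose call was lost without the block (0.395) and without animal 1, 2 or 5 (0.206, 0.136 and 0.0995).

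**Figure D3:**
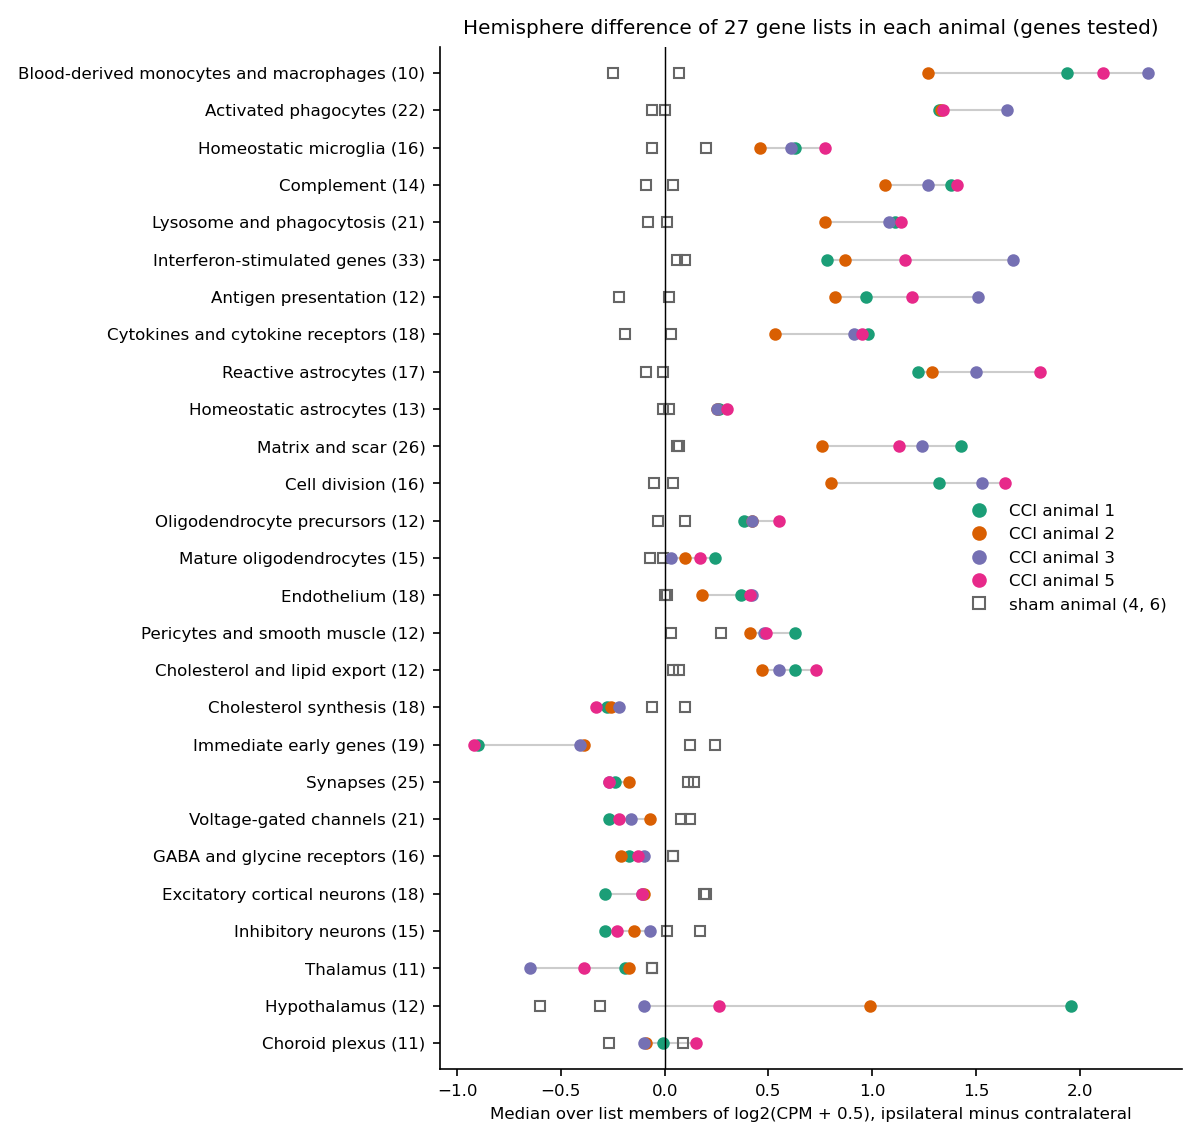
Median paired difference in log2(CPM + 0.5), ipsilateral minus contralateral, over the members of 27 gene lists (number tested in brackets) for each CCI animal (coloured points) and each sham animal with both hemispheres (open squares). Phagocyte, interferon, astrocyte, matrix and cell division lists sit right of 0 in all 4 CCI animals and neuronal lists left of it; the hypothalamus list runs from -0.10 in animal 3 to 1.96 in animal 1.

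Vessel, iron and oxidative stress genes mostly rose where they were called, and none of 4 red blood cell genes was called. Of 18 endothelial genes 11 rose (7 in DESeq2), with Icam1, an adhesion molecule for leukocytes, at 1.68, and the junction protein Cldn5 at 0.41, a call lost without the block (0.152). Slc2a1, the glucose transporter of the barrier, had 0.18 (0.015; 0.11 without the block and 0.168 without animal 5) and Flt1, a receptor for vascular growth factor, 0.18 (0.0239; 0.0824 without animal 1 and 0.178 without animal 5). Of 12 pericyte genes 9 rose (4 in DESeq2), with Vtn at 0.17 (0.03; 0.0647 without the block, 0.0952 without animal 1 and 0.147 without animal 5), and Rgs5 had 0.13 (0.0767; 0.0163 without animal 1). Of 12 meningeal fibroblast genes 7 rose, with Igf2, a growth factor, at 0.33 while Ptgds, a prostaglandin synthase, had -0.02 (0.801). Among the red blood cell genes, Hbb-bs averaged 51.5 CPM against 49.8 CPM and Hba-a2 38.6 CPM against 37.7 CPM. Among 14 haem and iron genes 8 rose, led by Hmox1 and including Fth1 (0.22), a ferritin chain, and Trf (0.57), for transferrin, and 2 fell, Tfrc, the transferrin receptor, at -0.42 and Slc11a2, an iron importer, at -0.23. Of 16 oxidative stress genes 9 rose and 1 fell. The metallothioneins Mt1 (0.48) and Mt3 (0.20, 0.0187; 0.191 without the block, and 0.106, 0.0511 and 0.0921 without animal 1, 2 or 5) were among the rises, and Gpx4, a lipid peroxidase, had -0.01 (0.922).

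Cholesterol synthesis and cholesterol export genes changed in opposite directions. Of 18 synthesis genes 14 fell and none rose (median -0.31), and of 12 export genes 9 rose and none fell (median 0.58). Hmgcs1, an early enzyme of the synthesis pathway, stood at 204, 249, 295 and 251 CPM against 269, 315, 332 and 314 CPM. Animals differed enough that the groups overlapped, yet the ipsilateral side was lower in each animal, and the fall was 1.24-fold (log2 -0.31, SE 0.04, adjusted p = 1.30e-05), lost without the block (0.099). Insig1, a sensor that the same factor controls, stood at 55, 61.2, 62.4 and 61.4 CPM against 67.8, 79.5, 91.3 and 83.5 CPM, without overlap. Srebf2, that factor itself, had -0.13 (0.0385), lost without the block (0.108) and without any single animal (0.0567 to 0.203). Its call was also lost in DESeq2 (0.232), in limma on TPM (0.321) and with library totals alone (0.144). Abca1, the pump that loads cholesterol onto lipoproteins, stood at 156, 131, 171 and 163 CPM against 77.3, 71.4, 64.9 and 63.2 CPM and rose 2.23-fold (7.03e-06).

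The deepest falls included immediate early genes and a few receptor and channel genes. Some of them were also lower ipsilaterally in both sham animals, as given below. The 12 largest falls among called genes of at least 5 CPM were the unnamed gene ENSMUSG00000106857.1 at -1.51, Gucy1a2 at -1.39, Grin2a at -1.31, Nr4a1 at -1.18, Arc at -1.12, Npas4 at -1.11, Kctd16 at -1.08, Tnnt1 at -1.06, Kcnh5 at -0.97, Myl4 at -0.94, Egr4 at -0.91 and Ramp3 at -0.85. Of 19 immediate early genes tested 14 fell and none rose (median -0.60), and 10 of the 19 also differed from sham in the test of the difference described below. The promoters of Nr4a1 and Npas4 are shown because both hold the CREB half-site TGACG, searched on both strands, with matches in capitals. Both are RefSeq windows as above, Nr4a1 at chr15:101266596-101266895 on the plus strand and Npas4 at chr19:4989922-4990221 on the minus strand. The Nr4a1 window lies inside the span of the gene given below, so its start site is not the outermost one.
Nr4a1: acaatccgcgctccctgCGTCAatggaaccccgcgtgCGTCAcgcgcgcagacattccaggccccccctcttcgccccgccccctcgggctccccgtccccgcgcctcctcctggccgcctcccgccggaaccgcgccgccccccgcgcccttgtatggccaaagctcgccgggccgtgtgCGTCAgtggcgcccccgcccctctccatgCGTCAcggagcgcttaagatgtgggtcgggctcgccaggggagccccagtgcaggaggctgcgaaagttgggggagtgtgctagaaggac
Npas4: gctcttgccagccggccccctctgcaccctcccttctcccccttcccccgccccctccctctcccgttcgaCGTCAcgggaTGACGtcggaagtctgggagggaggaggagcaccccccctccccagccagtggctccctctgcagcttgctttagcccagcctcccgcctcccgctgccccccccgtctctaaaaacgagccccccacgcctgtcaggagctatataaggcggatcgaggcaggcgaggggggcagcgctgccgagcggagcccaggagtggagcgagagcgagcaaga
The half-site was in 11 of the 14 immediate early genes with a window, in 31.2% of all genes tested with a window, in 35.2% of those called lower and in 22.7% of those called higher. As above, the shares were not tested.

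Nr4a1 (chromosome 15, 101254269 to 101274795) encodes a nuclear receptor induced by activity. It stood at 35.8, 45.4, 31.9 and 31.9 CPM ipsilaterally against 84.5, 80.5, 73.9 and 90.4 CPM contralaterally, with 86.6 to 109 CPM in sham hemispheres. The groups were clearly apart, and the fall was 2.27-fold (log2 -1.18, SE 0.09, adjusted p = 4.12e-07). Arc, a synaptic protein translated after activity, stood at 91.5, 84.1, 71.6 and 64.8 CPM against 201, 144, 139 and 200.1 CPM and fell 2.17-fold (0.021). It did not overlap, but its call was lost without animal 1 (0.12) and without animal 3 (0.101). Npas4, a factor of active neurons, stood at 7.51, 10.1, 8.21 and 4.24 CPM against 17.7, 17.2, 13.7 and 16.2 CPM and fell 2.16-fold (5.95e-05). Fos fell by 0.76 and Homer1, a postsynaptic scaffold, by 0.59 (0.029; 0.0892 without the block and 0.0738 without animal 5). Egr1, the most abundant zinc finger factor of the list, stood at 104, 126, 95.3 and 90.6 CPM against 212, 166, 139 and 207 CPM. It did not overlap but missed the threshold (-0.79, SE 0.18, adjusted p = 0.0667). Egr1 was called without the block (0.0213), in DESeq2 (0.000642), in limma voom (1.95e-05), in limma on TPM (0.0121), and without animal 2 (0.0152) or animal 5 (0.047). The authors' deposited table gives it an estimate of -0.799 with an adjusted p of 0.0142. By animal the list's median difference was -0.90, -0.39, -0.41 and -0.92, so animals 1 and 5 stood apart from 2 and 3. The contralateral means of the list were also higher in animals 1 and 5, at 5.19 and 5.26 on the log2 scale against 4.99 and 4.82.

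Synaptic genes fell in larger number and by less. Of 25 tested 22 fell and none rose, with a median of -0.22, and limma on the authors' TPM called 14 of them. Snap25, a protein of vesicle fusion, stood at 1948, 2074, 1995 and 1834 CPM against 2567, 2507, 2634 and 2525 CPM, without overlap, and fell 1.3-fold (log2 -0.38, SE 0.04, adjusted p = 2.69e-07). Camk2a, a postsynaptic kinase, fell by 0.21. Grin2a, an NMDA receptor subunit, stood at 13.1, 9.01, 14.4 and 9.84 CPM against 25.5, 35.6, 27.1 and 26 CPM, a 2.47-fold fall (0.000288). In sham animals 4 and 6 it was also lower ipsilaterally, at 13.3 and 14.9 CPM against 22.7 and 24.8 CPM. Of 21 voltage-gated channel genes 11 fell (7 in limma on TPM), with the sodium channel Scn8a at -0.19. Of 16 GABA and glycine receptor genes 7 fell, while Gabbr1, a metabotropic GABA receptor, had -0.06 (0.352) and Slc12a5, the chloride exporter of neurons, -0.11 (0.0946; 0.0195 without animal 2).

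Markers of neuron classes gave a mixed picture. Of 18 excitatory cortical genes 8 fell and 2 rose, and in the fit without the block none rose. Nrgn, a calmodulin-binding protein, fell by 0.28 (0.00636; 0.0776 without animal 1) and Slc17a7, the vesicular glutamate transporter of cortex, had -0.10 (0.146; -0.16 and 0.0163 without animal 3). Of 15 inhibitory genes 6 fell, among them Sst (-0.29), for somatostatin, while the GABA-making enzyme Gad1 had -0.14 (0.512) and the vesicular transporter Slc32a1 -0.01 (0.897). Gad1 was lower ipsilaterally in animals 1, 2 and 5 and higher in animal 3, and without animal 3 it was called at -0.28 (1.30e-05). Of 17 axon injury genes 8 rose (4 in DESeq2) and 2 fell. Atf3, a factor induced in damaged neurons, stood at 10.6, 12, 16.6 and 14.6 CPM against 1.03, 1.82, 0.537 and 0.89 CPM (12.2-fold, 6.34e-10). Sprr1a, known from regenerating axons, had 102 counts over the ipsilateral libraries and 1 over the contralateral ones, a ratio per scaled depth of 89.2 with an exact 95% interval of 15.6 to 3555 that covers counting error only. Gap43, a growth cone protein, had -0.02 (0.844), and Stmn2, a regulator of microtubules, and Tubb3, a neuronal tubulin, had -0.11 each (0.0506 and 0.0701).

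Genes of stress and metabolism changed in both directions, beside 14.1% higher and 11.5% lower calls over all genes tested. Of 13 angiogenesis and hypoxia genes 4 rose and 3 fell (Pgk1, a glycolytic enzyme, at -0.16; Ldha, lactate dehydrogenase, at -0.12, 0.0657, and 0.0126 without animal 3), and DESeq2 called none of the rises. Of 12 glucocorticoid response genes 3 rose (none in DESeq2) and 3 fell, with Per1, a clock gene, at -0.25 and Sgk1, a kinase, at 0.18 (0.064; 0.0388 without animal 2). Of 14 heat shock genes 5 rose and 3 fell, and none fell in the fit without the block. The abundant chaperones Hspa8 (-0.10, 0.0745) and Hsp90ab1 (0.03, 0.662) were not called. Of 13 mitochondrially encoded genes 4 fell, with mt-Co1 at -0.14 (0.0237; 0.0531 without the block and 0.0743, 0.052 and 0.0947 without animal 1, 2 or 3) and mt-Cytb at -0.11 (0.0607).

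Lists of brain region markers differed in how many members were called, beside 25.6% of all genes tested. None of 11 choroid plexus genes was called, with Ttr, a thyroid hormone carrier, at 0.01 (0.967) and Enpp2, which makes a lipid signal, at -0.02 (0.837). None of 7 olfactory bulb genes (Dlx1 -0.14, Pbx3 0.10) was called, although Dlx1 passed at -0.31 (0.0126) without animal 3, and none of 7 midbrain and hindbrain genes (Ddc 0.26, Slc6a3 0.31) was called. Of 11 thalamus genes 6 fell (3 without animal 5), among them Rora at -0.39 and Ramp3 at -0.85, while Slc17a6, the transporter of subcortical glutamate neurons, had -0.15 (0.502). Of 13 striatum genes 2 fell, including Scn4b (-0.45), and Pde10a had -0.10 (0.306; -0.17 and 0.0226 without animal 2). In the hippocampus list Wfs1 was the only one of 6 to rise (0.60) and 3 fell (Cnih2 -0.18, 0.0295; 0.0838 without the block and 0.0822, 0.106 and 0.24 without animal 1, 3 or 5). In the cerebellum list of 6, Calb1 fell by 0.14 (0.0445; 0.0717 without the block and 0.0733, 0.326 and 0.0878 without animal 2, 3 or 5) and Zic1 had -0.04 (0.875). The call of Calb1 was also lost in DESeq2 (0.282), limma voom (0.0583), limma on TPM (0.294) and with library totals alone (0.137). In the ependyma list of 7, Foxj1 (0.49; 0.0812 without animal 1) and Rarres2 (0.70; 0.0636 without animal 1 and 0.0753 without animal 5) were among 3 rises, and DESeq2 called none.

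Hypothalamic peptide genes varied most between animals. Of 12 tested 4 rose and 1 fell (median 1.02), and DESeq2 called 1 rise. Avp, for vasopressin, stood at 22.4, 8.27, 6.84 and 6.35 CPM ipsilaterally against 0.295, 2.93, 7.66 and 2.14 CPM contralaterally. Oxt, for oxytocin, stood at 11.4, 10.4, 5.34 and 9.34 CPM against 0, 2.79, 3.63 and 4.63 CPM. Neither was called (1.66, adjusted p = 0.356, and 1.74, 0.253), but Oxt passed without animal 1 (1.17, 0.00126) and in limma voom (0.0226). Baiap3, the most abundant member, had 0.69 (0.166; 0.0455 without animal 5 and 0.000801 in limma voom). In the authors' deposited table Avp (adjusted p = 0.0458), Oxt (0.0116) and Baiap3 (0.0095) pass. The paired median of the list was 1.96 in animal 1, 0.99 in animal 2, -0.10 in animal 3 and 0.26 in animal 5, and -0.31 and -0.60 in the sham animals. Whether the hemispheres were divided alike was not tested. Over all genes, the counts of calls without animal 1 were 1641 higher and 1111 lower genes.

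**Figure D4:**
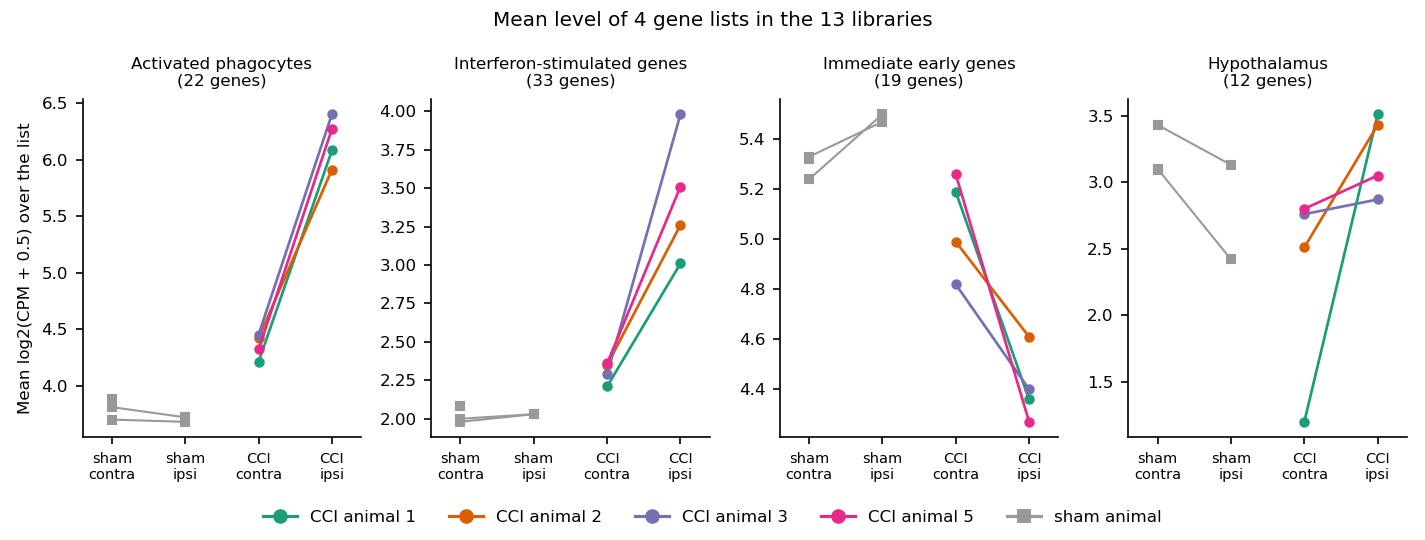
Mean log2(CPM + 0.5) over the members of 4 gene lists in all 13 libraries, with a line for each animal that has both hemispheres. CCI contralateral levels of the phagocyte list (4.21 to 4.45) lie above sham (3.68 to 3.88) and the ipsilateral ones higher still (5.91 to 6.40); in the hypothalamus list the contralateral library of animal 1 stands apart at 1.20.

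The same comparison in sham animals shows how much of a hemisphere difference occurs without impact. Among genes of at least 5 CPM, both sham animals had the sign of the CCI difference for 31% of the 1632 higher calls, 30.1% of the 1606 lower calls and 29.1% of the 8625 genes not called. For 185 higher (11.3%) and 248 lower genes (15.4%) both sham animals had the CCI sign and their mean reached at least 50% of the CCI difference. That share was not computed for genes not called, so it has no background to be read against. The 6 genes with the largest such sham difference were Cd72, ENSMUSG00000106857.1, Gm10409, Apoo-ps, Gm14327 and Tmem245. Cd72, a lectin of B cells and myeloid cells, stood at 5.37, 10.4, 9.44 and 11.5 CPM against 0.885, 2.1, 4.03 and 0.712 CPM in CCI mice. In sham animals 4 and 6 it had 2.07 and 2.57 CPM ipsilaterally and 0 in both contralaterally, while contralateral animal 8 had 1.78 CPM. Tmem245, a membrane protein, stood at 3.49, 3.7, 5.2 and 3.49 CPM against 5.9, 7.96, 7.39 and 6.77 CPM in CCI mice and at 2.58 and 3.62 CPM against 6.53 and 6.63 CPM in sham animals 4 and 6. Gm10409 (-0.83), Gm14327 (-0.55) and Apoo-ps (-0.39), the last a processed pseudogene, may share reads with near copies, so their values are uncertain. The calls of all 3 were lost without the block (0.634, 0.0984 and 0.0544). They were also lost without animal 1 or 3 for Gm10409 (0.121 and 0.093), without animal 1, 2 or 3 for Gm14327 (0.099, 0.0541 and 0.26) and without animal 1 or 5 for Apoo-ps (0.148 and 0.135).

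**Figure D5:**
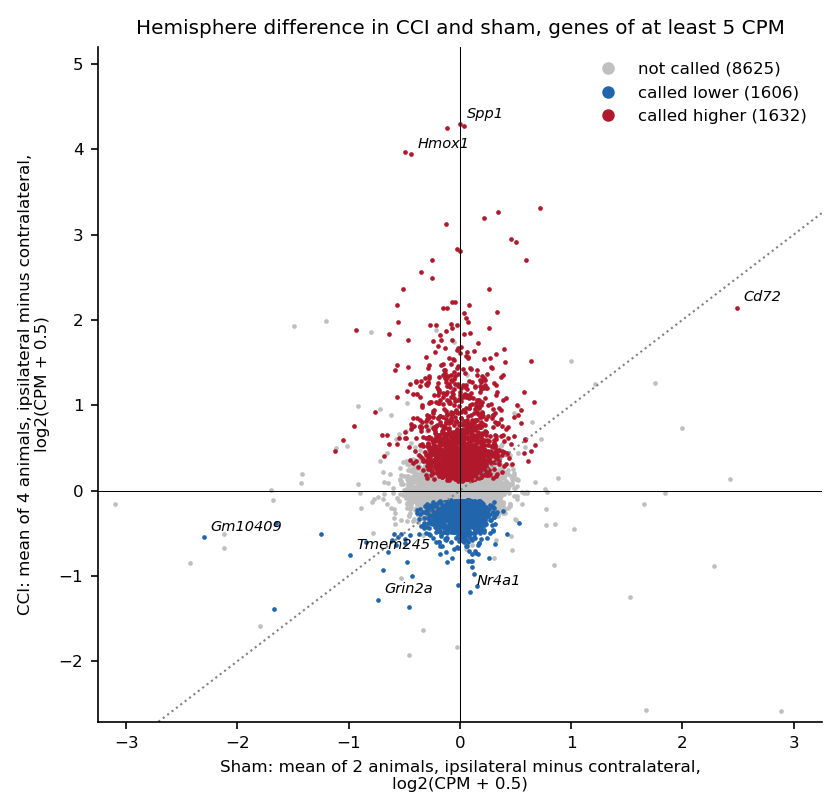
Mean paired difference in log2(CPM + 0.5), ipsilateral minus contralateral, over 4 CCI animals (vertical axis) against 2 sham animals (horizontal axis) for genes of at least 5 CPM. Red and blue points are the 1632 higher and 1606 lower calls, grey ones the 8625 not called, and the dotted line marks equal differences; Spp1 and Nr4a1 lie near 0 in sham and Cd72 near the line.

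A test of the difference itself, with 12 libraries of 6 animals and the animal as a block, called 705 of 14853 genes with a higher and 655 with a lower hemisphere difference in CCI than in sham (9.16%, of which 4.75% higher and 4.41% lower). It called 35.8% of the higher genes of at least 5 CPM, 33.6% of the lower ones and 1.67% of those not called between CCI hemispheres. The test holds the same CCI libraries that gave those calls. Called genes were therefore bound to pass more often, and the gap between these shares is no separate evidence. In the lists it called 16 of 22 activated phagocyte, 8 of 16 homeostatic microglia and 18 of 21 lysosome genes as higher. Also higher were 11 of 17 reactive astrocyte, 9 of 33 interferon-stimulated, 5 of 16 cell division, 3 of 12 oligodendrocyte precursor and 2 of 12 pericyte genes. As lower it called 19 of 25 synaptic, 10 of 19 immediate early and 11 of 21 channel genes. The medians of these lower lists were above 0 in sham animals 4 and 6, which adds to the difference. They were 0.11 and 0.14 for synaptic, 0.12 and 0.24 for immediate early and 0.08 and 0.12 for channel genes. Of 9 chemokines 0 passed as higher and 1 as lower. Nr4a1 differed by -1.28 (adjusted p = 0.000242), Snap25 by -0.45 (9.32e-05) and Cd68 by 2.29 (5.65e-06). Spp1 differed by 4.27 (0.0308), while Gpnmb (4.24, 0.126) and Gfap (1.32, 0.0845) missed the threshold. Of the 12 deepest falls 6 passed and 6 did not. The latter were ENSMUSG00000106857.1 (-0.51, 0.847), Arc (-1.28, 0.0799), Grin2a (-0.56, 0.251), Gucy1a2 (-0.93, 0.0615), a subunit of the nitric oxide receptor, Kctd16 (-0.63, 0.205), an auxiliary GABA receptor protein, and Kcnh5 (-0.27, 0.501), a potassium channel. Apart from Arc, these were lower on the ipsilateral side in both sham animals too. Without the block the counts were 461 and 353, without sham animal 4 they were 237 and 207, and without sham animal 6 they were 229 and 188.

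A term for the animal in the same fit shows genes that differed between mice on both sides. It called 75 of 14297 genes (0.525%), and 1484 genes had an unadjusted p under 0.05. There were 446 calls without the filter on low counts, 150 without animal 3, 46 without animal 1 and 40 without animal 5. The 6 smallest p-values among genes of at least 5 CPM belonged to Gm10409, A330023F24Rik, Ndn, Rsrp1, mt-Nd3 and mt-Rnr1. Ndn, an imprinted gene of neurons, stood at 211, 225, 212 and 127 CPM ipsilaterally and 188, 207, 225 and 134 CPM contralaterally, low on both sides of animal 5 (adjusted p for the animal term = 4.25e-06). Gm10409 was at 0 on both sides of animal 2 and at 4.36 to 11.9 CPM in the others. A330023F24Rik, a noncoding transcript, was lowest on both sides of animal 3, at 71.4 and 81.5 CPM. Among called genes of at least 5 CPM, the size of the hemisphere difference was smallest in animal 2 for 826 of 1632 higher and 691 of 1606 lower genes. The median paired difference of the higher genes was 0.33 in animal 2 and 0.41, 0.47 and 0.49 in animals 1, 3 and 5. The 6 called genes with the widest range between animals were Msr1, C3, Irf7, Cd72, Thbs1 and Cd36, whose ranges run from 2.11 to 2.39 on the log2 scale.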

How the data were processed

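Poly(A) RNA of perfused hemispheres was sequenced from stranded libraries, per the labels' protocols. The authors deposited expected counts per gene from RSEM on GRCm38 (mm10), not normalized, and a TPM table (length-scaled abundance); units are per the file headers, tool and build per the submitters' processing notes. Their deposited DESeq2 table gives a log2 estimate, a signed fold change as a score, and a raw and an adjusted p-value. No source used here gives the aligner, versions, annotation or use of strand in counting, so overlapping genes on opposite strands may share reads.

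Expected counts were rounded, since 9.76% held decimals. Genes were matched by identifier to GENCODE M21 (98.89% of 43411). edgeR 4.0.16 (R 4.3.3; TMM, filterByExpr, robust quasi-likelihood test, Benjamini-Hochberg) fitted side with the animal as a block. Each SE was derived from the log2 fold change and F. Paired differences used log2(CPM + 0.5), with CPM from TMM sizes over 13 libraries. Alternatives were other scaling, no filter, no block, DESeq2 1.42.0, limma 3.58.1 (voom, or log2(TPM + 1)), and leaving out each animal. The fits were tested on simulated data. Replicate pairs differed by a chi-square per degree of freedom of 2.00 to 3.79, so none was a duplicate.

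The pairing comes from the animal numbers in the labels. Deviations from the group means correlated at 0.119, 0.025, 0.023 and 0.157 within animals 1, 2, 3 and 5, and at -0.121 to 0.055 between animals.

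The comparison and its 47 lists (701 of 704 symbols in the table, the rest not analysed here) were chosen with earlier results of these data known. Named genes are the 12 largest rises and 12 largest falls called with at least 5 CPM and 1 sign in 4 animals, the 2 most abundant tested members and the best known gene of each list, and 6 genes each by range between animals, by sham difference and by the animal term. The rule did not name the best known genes. They (Tmem119, Ccr2 and Sprr1a, for example), further list members and the printed promoters were chosen after their values were seen. Some genes that the rule names are not reported here, but they stay in every fit and count.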

Additional observations from a re-analysis of the deposited data

Results flagged for a closer look

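Among 4 libraries of a group, a library far from the other 3 relative to their whole range was marked. Chance marks about 1 in 20 groups. Many named genes and lists were searched on both sides, so many of the marks below may be chance alone, and none was tested. On the ipsilateral side, animal 1 stood apart in Avp at 22.4 CPM (others 6.35 to 8.27), Cxcl10 at 2.82 CPM (others 6.17 to 6.3) and Insig1 at 55 CPM (others 61.2 to 62.4). Animal 2 stood apart in Fos at 19.5 CPM, and animal 3 in Hba-a1, an alpha globin, at 8.35 CPM (others 15.9 to 16.2) and Tmem245 at 5.2 CPM. Animal 5 stood apart in the mean log2(CPM + 0.5) of homeostatic astrocyte genes at 8.33 and of axon injury genes at 4.72.

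On the contralateral side, animal 2 stood apart in Grin2a at 35.6 CPM (others 25.5 to 27.1) and in the olfactory bulb list at 4.33. Animal 3 stood apart in Cxcl10 at 0 CPM, Lcn2 at 1.75 CPM, Sprr1a at 0.134 CPM (1 count, others 0) and the haem and iron list at 5.34, and animal 5 in the chemokine list at 2.85.

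The hemisphere difference itself differed between CCI and sham mice by the interaction test, with 705 genes higher and 655 lower.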

How the results depend on the processing

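Over 14297 genes the counts of calls held within 1.5 times of the main fit under most settings. DESeq2 lay beyond that, with 976 higher and 657 lower genes, as did limma on log2(TPM + 1) with 730 lower genes. Leaving out each animal gave 1480 to 1898 higher and 1056 to 1455 lower genes. Of these, only the 1056 lower genes without animal 5 lay beyond 1.5 times. Without the animal as a block (no replicate block) there were 1842 higher and 1339 lower calls, within 1.5 times. For the difference between CCI and sham, that setting gave 461 higher and 353 lower genes, beyond 1.5 times. That difference also moved further in DESeq2, to 151 higher and 194 lower genes, and with library totals alone, to 397 lower genes. Leaving out animals gave 229 to 788 higher and 188 to 713 lower genes. The lowest counts came without either sham animal, and only those lay beyond 1.5 times. The animal term gave 446 genes without the filter, 47 in limma voom and 40 to 150 without single animals. The causes were not tested.

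Of 1836 alternative values for 153 named genes, 1631 kept direction and call, 137 lost the call, 35 gained one and 33 turned direction. Direction turned only in genes not called. With library totals alone Enpp2 had 0.02, Gap43 0.01, Gpx4 0.02, Ptgds 0.01 and Slc32a1 0.02. In limma on TPM Enpp2 had 0.03, Gap43 0.02, Gpx4 0.03, Ptgds 0.02, Rsrp1 0.01, Slc32a1 0.03 and Zic1 0.09. Leaving out single animals gave Dlx1 -0.31 to 0.02, Hba-a2 up to 0.10, Jak1 up to 0.08, Ndn up to 0.08, Pbx3 up to 0.27, Ptgds down to -0.10, Slc32a1 down to -0.04 and Zic1 down to -0.20. Without animal 1 Bcan had -0.01, Ndn -0.01 and Ttr -0.07. Without animal 2 Dlx1 had 0.02, Enpp2 0.00 and Hba-a2 0.00. Without animal 3 Enpp2 had 0.02, Gap43 0.03, Gpx4 0.05, Jak1 -0.02, Pbx3 -0.05, Ptgds 0.04 and Zic1 0.07. Without animal 5 Gap43 had 0.03, Gpx4 0.02, Hba-a2 -0.07, Hbb-bs -0.08, Jak1 -0.01, Slc32a1 0.04, Ttr -0.06 and Zic1 0.04. With 1 library per hemisphere and animal at this depth, genes under the filter, among them most listed markers of neutrophils and lymphocytes, could not be tested.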
